A study of Mus musculus with 48 samples.

Results

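Metallothioneins and zinc transporters were followed in mouse brain tissue through the first week after ischemic injury of the cortex. The 7 genes described are the metallothioneins *Mt1*, *Mt2* and *Mt3*, the zinc exporters *Slc30a1* and *Slc30a3*, and the zinc importers *Slc39a12* and *Slc39a14*. They were selected by name from earlier results of the same libraries, so their differences between groups are given as a description, without a test. The tables held 46983 genes, and 24 more of them were zinc genes taken from the same families, which are described beside the members. All 7 members had more than 10 counts in total, the minimum for testing, and each had counts in every one of the 48 libraries.

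Bulk RNA was sequenced from brain tissue of 3-month-old male C57Black/6 mice after permanent middle cerebral artery occlusion (MCAO), in which the artery was coagulated and cut through. MCAO groups held 5 libraries each at 3 h, 12 h, day 3 and day 7 and 4 libraries at 24 h, and each of the 5 sham groups held 4 libraries. The control group held 4 libraries of tissue that the study's methods call intact cortex. Shams, per the study, went through the surgery without the occlusion, and the labels name no engineered allele. The drugs that the study's methods name for such mice are isoflurane for the operation and pentobarbital before the brain was dissected. Per the supplementary methods, the tissue was the injured region of the cortex, with affected and unaffected tissue together. The study's main text instead describes almost the whole hemisphere on the side of the lesion. The share of lesion, or of tissue outside the cortex, in a library was therefore not set. Libraries were made with the QuantSeq kit, which reads the 3′ end of polyadenylated RNA. Gene counts ranged from 1522668 to 2826735 per library (median 1935856). Levels are given as CPM, library-size-scaled counts after TMM normalization (a scaling by the trimmed mean of expression ratios), one value per library, with replicates named by the letters of the labels.

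Metallothioneins are small proteins rich in cysteine that hold zinc and copper. *Mt1* and *Mt2* are made in many cell types, in brain chiefly in astrocytes, and are induced by free zinc, by glucocorticoids, by oxidative stress and by cytokines that act through STAT3, while *Mt3* is the form typical of brain. Free zinc acts on these genes through the transcription factor MTF1, which binds the metal response element (MRE). Proteins of the SLC30 family move zinc out of the cytosol, and those of the SLC39 family move it in. SLC30A1 sits in the plasma membrane and is itself a target of MTF1. SLC30A3 loads zinc into synaptic vesicles of glutamatergic neurons. SLC39A12 is a brain importer found in astrocytes, and SLC39A14 carries zinc, iron and manganese and is induced by IL-6 in liver.

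Promoters of *Mt1*, *Mt2* and *Slc30a1* are shown because these genes are known targets of MTF1 through the MRE. The sequences are the 250 bases before the annotated start of each gene, from RefSeq on GRCm38.p6, on the plus strand. Capitals mark each match to the MRE core, searched on both strands as TGCACNC or TGCGCNC, which in one window can overlap each other.
Mt1 (chr8:94178839-94179088): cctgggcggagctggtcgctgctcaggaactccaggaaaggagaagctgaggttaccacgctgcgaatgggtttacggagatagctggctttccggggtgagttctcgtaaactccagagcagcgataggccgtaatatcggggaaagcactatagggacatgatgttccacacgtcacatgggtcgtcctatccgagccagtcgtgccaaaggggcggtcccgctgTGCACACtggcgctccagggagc
Mt2 (chr8:94172368-94172617): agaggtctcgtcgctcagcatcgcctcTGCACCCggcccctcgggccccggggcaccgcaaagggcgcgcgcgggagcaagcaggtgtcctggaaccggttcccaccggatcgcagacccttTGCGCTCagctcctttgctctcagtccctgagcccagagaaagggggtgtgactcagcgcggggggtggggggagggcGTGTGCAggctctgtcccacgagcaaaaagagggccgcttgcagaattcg
Slc30a1 (chr1:191906531-191906780): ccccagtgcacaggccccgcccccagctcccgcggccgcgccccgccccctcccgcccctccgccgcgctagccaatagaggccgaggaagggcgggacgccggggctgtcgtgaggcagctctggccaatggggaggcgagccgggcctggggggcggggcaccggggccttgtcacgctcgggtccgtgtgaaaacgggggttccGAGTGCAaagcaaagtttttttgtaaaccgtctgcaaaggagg
At least 1 match was found in 21.4% of the 32851 promoters in RefSeq's table, and at least 3 matches in 1.26%. *Mt2* held 3 matches, *Mt1* held 1, *Slc30a1* held 1 and 1 of the 2 *Slc30a3* promoters held 1. None lay in these windows of *Mt3* and *Slc39a12*, and the promoter of *Slc39a14* was not analysed here. Gencode vM21 gives *Mt1* later starts as well, at 94179211 and 94179241, within the first exon of the long transcript. The 250 bases before either of these starts held 5 matches, a number reached in 0.082% of the promoters. Later starts were searched for *Mt1* alone, and the promoters before their RefSeq starts only, so this share does not compare like with like. A pair of the 5 *Mt1* matches lay close together just after the first start, shown in capitals.
Mt1 (chr8:94179089-94179118): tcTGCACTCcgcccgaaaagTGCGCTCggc
The reads come from 3′ ends and do not show which start was in use. Of the other zinc genes, 21 had an entry, and 10 of their 25 promoters held a match.

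*Mt1* (ENSMUSG00000031765.7) lies on chromosome 8 of GRCm38 from 94179082 to 94180327 on the plus strand. It was at 514, 489, 558 and 538 CPM in the 4 control libraries. In the 24 control and sham libraries together it ranged from 464.5 to 832 CPM. At 3 h after MCAO it was at 909.5, 794, 1329.7, 928 and 779 CPM, against 557, 492, 527 and 742 CPM in the shams. All 5 MCAO libraries lay above all 4 shams, and the log2 fold change was 0.71 ± 0.19 (SE). At 12 h *Mt1* was at 1156, 1578, 2014, 1319 and 1478 CPM after MCAO and at 829, 684, 654 and 754 CPM in sham. This was the highest group, and its lowest library exceeded every control and sham library of any time. The log2 fold change at 12 h was 1.05 ± 0.19 against sham and 1.52 ± 0.19 against control. At 24 h *Mt1* was at 1293, 1146, 1077 and 1552 CPM after MCAO and at 832, 568, 608 and 530.1 CPM in sham, a log2 fold change of 1.00 ± 0.19. Again all MCAO libraries lay above all 24 libraries without MCAO.

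On day 3 the *Mt1* level spread widely after MCAO, from 460.1 CPM in replicate A through 684, 1214 and 875 CPM in B, C and D to 940.3 CPM in E, while the shams held 465, 475, 476 and 613 CPM. Replicate A lay below all 24 libraries without MCAO, and the other 4 lay above the day 3 shams and the controls. The log2 fold change was 0.72 ± 0.19. Replicate A also had the lowest microglial sum of the day 3 MCAO libraries, 628 CPM over 8 genes against 1179 to 2230 CPM in the other 4. Its neuronal sum, 12282 CPM over 10 genes, and its astrocyte sum, 5438 CPM over 10 genes, were the highest of the group. The part of tissue composition in its *Mt1* level was not tested. On day 7 *Mt1* was at 588, 755, 528, 466 and 589 CPM after MCAO and at 589, 706, 615 and 684 CPM in sham. The groups overlapped, and the log2 fold change was -0.15 ± 0.18.

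A gene was called where edgeR's quasi-likelihood test gave a Benjamini-Hochberg adjusted p under 0.01 and the absolute log2 fold change over 0.58, and for the members a call is a description of size against spread only. *Mt1* met this rule against sham at 12 h, 24 h and day 3, and against control at 12 h and 24 h. The call at 12 h was lost without sham replicate C (log2 fold change 0.99). The call at 24 h was lost without MCAO replicate A (0.97) or D (0.89) and without sham replicate B (0.95), C (0.98) or D (0.92). The call on day 3 was lost without MCAO replicate C (0.55), D (0.70) or E (0.67) and without sham replicate A (0.67), B (0.69) or C (0.69). It was also lost with scaling to the spike-in RNAs, where the log2 fold change was 0.44. With only the groups compared in the fit, the calls at 12 h and on day 3 were lost at log2 fold changes of 1.04 and 0.70.

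*Mt2* (ENSMUSG00000031762.6) lies before *Mt1* on the same strand, from 94172664 to 94173568, and overlaps the antisense gene *Gm45774*. Whether counting used the strand is not given in the sources used here. If it did not, reads shared with the antisense gene could have been left out, since the counting mode drops reads shared between genes. *Mt2* was at 211, 290.0, 259 and 268 CPM in the controls. At 3 h it was at 591, 655, 820.5, 498 and 569.9 CPM after MCAO and at 317, 328, 362 and 320.0 CPM in sham. The groups did not overlap, and the log2 fold change was 0.92 ± 0.27. At 12 h the MCAO libraries held 379, 1108, 1538, 589 and 1077 CPM and the shams 197, 291, 522 and 296 CPM. Here 4 of the 5 MCAO libraries lay above all shams, while replicate A lay below sham replicate C. The log2 fold change at 12 h was 1.52 ± 0.28, larger than that of *Mt1*, with a larger error.

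At 24 h *Mt2* was at 623, 560.4, 539 and 1103 CPM after MCAO and at 284, 276, 323 and 320.4 CPM in sham, a log2 fold change of 1.23 ± 0.29. All 4 MCAO libraries lay above all 24 libraries without MCAO. On day 3 it was at 274, 363, 846, 582 and 588 CPM after MCAO and at 268, 247, 305 and 369 CPM in sham, a log2 fold change of 0.84 ± 0.27. Replicates C, D and E lay above all shams, and A and B lay among them. On day 7 it was at 379.6, 368, 243, 284 and 435 CPM after MCAO and at 273, 233, 269 and 187 CPM in sham, a log2 fold change of 0.51 ± 0.27. In 4 of 5 libraries the day 7 level was above all shams of that time, although none exceeded the highest of the 24 libraries without MCAO.

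*Mt2* met the call rule against sham at 12 h, and against control at 12 h (log2 fold change 1.87 ± 0.28) and 24 h (1.46 ± 0.29). At 12 h the call against sham was lost without MCAO replicate C (1.27) or sham replicate A (1.33), B (1.47) or D (1.47), and with only the groups compared in the fit (1.51). At 24 h the call against control was lost without MCAO replicate D (1.16) or any one control library (1.37 to 1.52), and with scaling to the spike-in RNAs (1.34). Conversely, *Mt2* met the rule against sham at 24 h with DESeq2 (1.23), with no filter on low counts (1.22) and with only the groups compared in the fit (1.22).

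*Mt3* (ENSMUSG00000031760.8), before *Mt2* at 94152607 to 94154146, is the form typical of brain. It was at 16.2, 42.7, 34.4 and 34.7 CPM in the controls, and at 14.5 to 49.1 CPM over the 24 libraries without MCAO. The median after MCAO was 37.9 CPM at 3 h, 46.7 at 12 h, 43.4 at 24 h, 35.7 on day 3 and 41.3 on day 7. MCAO and sham libraries overlapped at every time. Its log2 fold changes against sham lay between 0.18 ± 0.32 at 12 h and 0.69 ± 0.35 at 24 h, and none met the call rule. The highest values, 107 CPM in replicate C at 3 h and 93.5 CPM in replicate A at 24 h, were single libraries in their groups. The *Mt1*, *Mt2* and *Mt3* levels of all libraries are plotted by group.

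**Figure D1:**
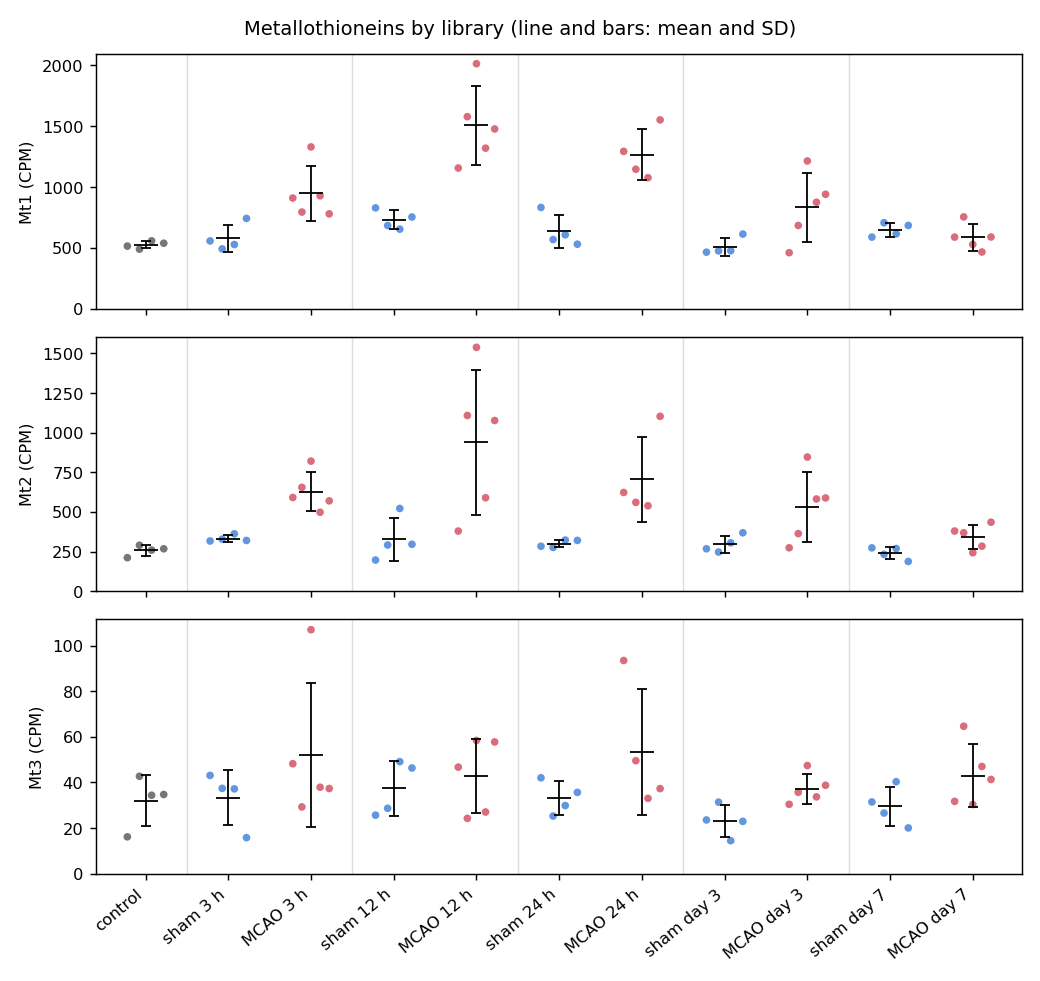
Levels of *Mt1*, *Mt2* and *Mt3* in each of the 48 libraries (points, TMM-normalized CPM on linear axes that start at 0), by group in order of time, with control in grey, sham in blue and MCAO in red. Black lines and bars are the group mean and SD, and the *Mt1* libraries of MCAO at 12 h and 24 h, between 1077 and 2014 CPM, sit above all 24 libraries without MCAO, which reach 832 CPM.

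The ratio of *Mt2* to *Mt1* CPM, taken within each library, had a median of 0.481 in the controls (0.411 to 0.593). It was 0.702 at 12 h after MCAO (0.328 to 0.764) and 0.41 in the shams of that time (0.237 to 0.798), and the groups overlapped. The medians lay closer at 3 h (0.65 after MCAO and 0.618 in sham), at 24 h (0.495 and 0.508) and on day 3 (0.626 and 0.589). On day 7 it was 0.61 after MCAO (0.459 to 0.739) and 0.384 in sham (0.274 to 0.464), with an overlap limited to their ends. Over the 48 libraries *Mt1* and *Mt2* had a Pearson correlation of 0.83 on log2(CPM + 1), whereas *Mt1* and *Mt3* had 0.43. All such correlations are descriptions, since the libraries share groups, depth and tissue composition.

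Lists of genes for other signals known to induce metallothioneins were read beside them. For 6 genes of the IL-6 family and STAT3 signaling, the summed level in MCAO was 110 to 376 CPM at 12 h (median 222), against 70.4 to 101 CPM in sham, and 2 of the 6 genes were called higher. *Il6* and *Osm* were at 0 in all shams of 12 h. The correlation of this sum with *Mt2* over the 48 libraries was 0.82, and with *Mt1* it was 0.67. The sum of the granulocyte genes had a correlation of 0.77 with *Mt2* and 0.71 with *Mt1*. For 6 glucocorticoid-responsive genes the sum was highest at 3 h, in sham (305 to 376 CPM) as well as in MCAO (321 to 519 CPM), against 189.9 to 323 CPM in control. None of these 6 was called in MCAO against sham or in sham against control. Their sum had a correlation of -0.13 with *Mt1* and -0.001 with *Mt2*. The sum of blood genes had 0.53 with *Mt1* and 0.65 with *Mt2*, and that of astrocyte genes -0.53 and -0.58. The part of either response, or of granulocytes, in the metallothionein levels was not tested.

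Granulocyte markers were higher in the 12 h MCAO libraries than in their shams too. The sum of 5 genes was 11.5 CPM in replicate A to 1706 CPM in replicate E after MCAO, with a median of 171 CPM. It was 1.12 to 3.12 CPM in sham, where *Retnlg* and *Cxcr2* were at 0, and 5.58 to 10.1 CPM in control. Against sham, 2 of the 5 genes were called higher. The astrocyte sum of 10 genes, by contrast, was 4531 to 5462 CPM after MCAO and 5160 to 6390 CPM in sham at 12 h, and none of the 10 was called. In bulk RNA, a change in the number of cells of a type cannot be told apart from a change in RNA per cell. The share of these cells in the metallothionein differences was not tested.

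*Slc30a1* (ENSMUSG00000037434.7, chromosome 1 from 191906767 to 191913247, plus strand, overlapped at its 5′ end by the antisense gene *1700034H15Rik*) was at 48, 46.6, 71.1 and 48.4 CPM in the controls. At 3 h after MCAO it was at 94.6, 76.5, 72.6, 53.4 and 77.0 CPM, against 35.6, 35.1, 48.4 and 47.4 CPM in sham. All MCAO libraries lay above all shams. The log2 fold change was 0.84 ± 0.18 against sham and 0.48 ± 0.18 against control, and the 3 h shams were themselves lower than control, with a log2 fold change of -0.36 ± 0.19. It met the call rule against sham with DESeq2 (0.85) and without MCAO replicate D (0.95), though not with all libraries in edgeR. At 12 h the MCAO libraries held 65.3, 64.1, 65.2, 38.2 and 51.8 CPM and overlapped the shams of 35.5 to 69.8 CPM, with a log2 fold change of 0.17 ± 0.18. At 24 h they held 65.9, 71.5, 68.2 and 66.6 CPM and lay above the shams of 44.9 to 58.6 CPM, with a log2 fold change of 0.36 ± 0.19. On days 3 and 7 the groups overlapped and the log2 fold changes were -0.11 ± 0.18 and 0.10 ± 0.18. The highest group mean of this exporter was that of the earliest MCAO group, while *Mt1* and *Mt2* were highest at 12 h.

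*Slc30a3* (ENSMUSG00000029151.14, chromosome 5 from 31086106 to 31108237, minus strand, overlapping *Gm9924* and *Dnajc5g* on the other strand) was at 259, 299, 308 and 211 CPM in control. At 3 h it was at 221 to 348 CPM after MCAO and at 245 to 284 CPM in sham. At 12 h replicates B, C and D of MCAO held 259, 173 and 244 CPM, while A and E held 620.0 and 449 CPM. At 24 h the MCAO libraries held 463, 422, 247 and 111 CPM and the shams 273 to 538 CPM. None of these 3 times separated the groups, and the log2 fold changes lay between -0.27 ± 0.36 and 0.22 ± 0.34.

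On day 3 *Slc30a3* was at 345, 207, 127, 130.4 and 107 CPM after MCAO and at 309, 229, 353 and 387 CPM in sham, a log2 fold change of -0.80 ± 0.34. Replicates B to E lay below all 24 libraries without MCAO, and replicate A lay within the shams. On day 7 it was at 414, 291, 66.6, 393 and 260.5 CPM after MCAO and at 327, 437, 372 and 489 CPM in sham, a log2 fold change of -0.51 ± 0.34. Replicate C held the lowest level of all 48 libraries. Neither comparison met the call rule. Neuronal markers were lower in the same libraries. The sum of 10 neuronal genes was 8239 to 12282 CPM after MCAO on day 3 (median 8458) against 12000 to 13610 CPM in sham, with 1 of the 10 called lower, and no marker was at 0. The same sum was 6692 CPM in day 7 replicate C and 10207 to 10771 CPM in the other 4. Over the 48 libraries the correlation of *Slc30a3* with the neuronal sum was 0.63, and with the sum of 5 striatal genes it was -0.07. It was 0.49 with the astrocyte and -0.48 with the oligodendrocyte sum. It was -0.70 with the endothelial, -0.55 with the microglial, -0.53 with the peripheral myeloid and -0.53 with the fibroblast sum. The library with the most striatal RNA, MCAO replicate D at 24 h with 2873 CPM, held the lowest *Slc30a3* of its group. The part of tissue composition in these levels was not tested.

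**Figure D2:**
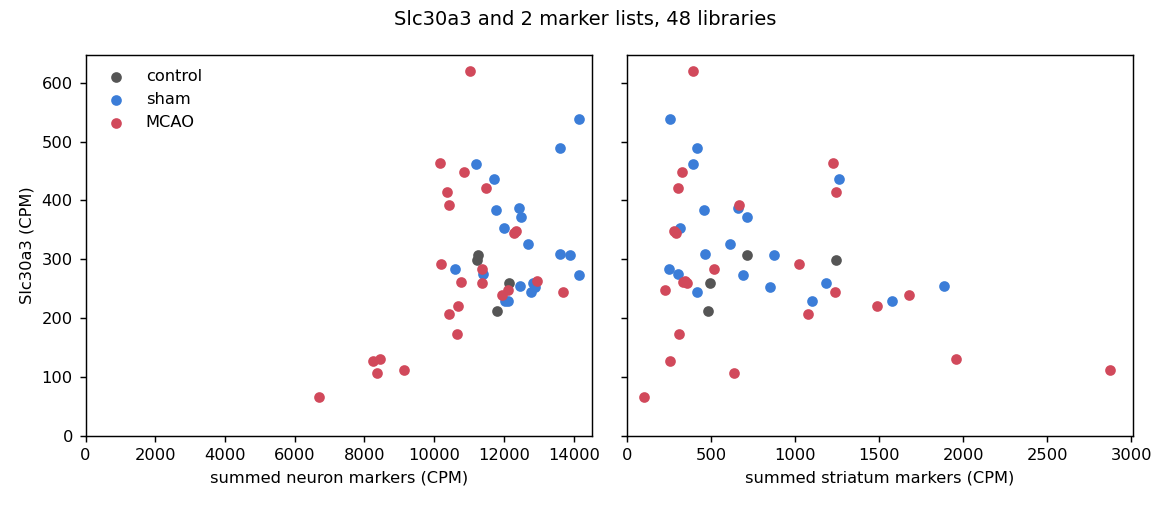
*Slc30a3* level (vertical axis, CPM) against the summed level of 10 neuronal markers (left) and of 5 striatal markers (right, both in CPM), each point 1 of the 48 libraries, coloured by control, sham or MCAO. The correlation is 0.63 for neurons and -0.07 for striatum, and the lowest point, at 66.6 CPM, also has the lowest neuronal sum, 6692 CPM.

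*Slc39a12* (ENSMUSG00000036949.16, chromosome 2 from 14388316 to 14494977, plus strand) was a low gene, with 3 to 47 counts per library. It was at 14.5, 11.8, 10.2 and 9.68 CPM in control. At 3 h the MCAO libraries (7.55 to 12.1 CPM) and the shams (5.18 to 12.3 CPM) covered the same range. At 12 h it fell to 1.85, 4.37, 4.69, 3.53 and 1.79 CPM after MCAO, which rest on 3 to 9 counts each, while the shams held 7.82, 7.30, 17.4 and 10.9 CPM. All 5 MCAO libraries lay below all shams and all controls. The log2 fold change was -1.76 ± 0.33 against sham and -1.82 ± 0.34 against control, and both met the call rule. The call against sham was lost without MCAO replicate E (-1.63) or sham replicate C (-1.43), and both calls were lost with only the groups compared in the fit.

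At 24 h the MCAO libraries held 4.25 to 8.88 CPM and the shams 5.69 to 9.44 CPM, with a log2 fold change of -0.16 ± 0.35. All 4 of these MCAO libraries lay below all controls, where the log2 fold change was -0.88 ± 0.33 and was not called. The shams of 24 h were themselves lower than control, at a log2 fold change of -0.72 ± 0.34. On day 3 the MCAO libraries held 5.29 to 10.7 CPM and the shams 9.84 to 14.5 CPM, a log2 fold change of -0.54 ± 0.30. On day 7 the order was turned, with 20.2, 12.2, 7.73, 12.5 and 10 CPM after MCAO and 8.01, 5.13, 6.54 and 3.65 CPM in sham. The log2 fold change was 1.11 ± 0.32 against sham, which met the call rule with DESeq2 alone, and 0.12 ± 0.30 against control. The day 7 shams lay lower than the controls, at a log2 fold change of -0.99 ± 0.34.

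At 12 h the sum of 6 oligodendrocyte genes was 901 to 1911 CPM after MCAO and 1619 to 3684 CPM in sham, with a median log2 fold change of -0.82 and no gene called. The sum of 5 striatal genes was 309.8 to 1238 CPM and 396 to 1887 CPM, with a median log2 fold change of -1.60 and no gene called. The astrocyte sum was lower too, with a median of 4623 CPM after MCAO and 6192 CPM in sham, and no gene was called. The median of the log2 fold changes of its genes was -0.03. Over the 48 libraries *Slc39a12* had a correlation of 0.49 with the oligodendrocyte sum and 0.31 with the astrocyte sum. The part of astrocytes, or of sampled white matter or striatum, in the 12 h difference was not tested.

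*Slc39a14* (ENSMUSG00000022094.15, chromosome 14 from 70303469 to 70351425, minus strand) was also low, with 8 to 62 counts per library. It was at 15.1, 10.1, 10.7 and 7.97 CPM in control. At 3 h it was at 12.1, 16.1, 10.1, 12.5 and 11.8 CPM after MCAO and at 10.3, 6.91, 8.07 and 7.63 CPM in sham, and at 12 h at 7.79, 18.4, 19.3, 11.2 and 17.3 CPM and at 7.26, 7.30, 7.76 and 11.3 CPM. The MCAO mean was above the sham mean at each of the 5 times, although the groups overlapped at each. On day 3 the MCAO libraries ranged from 5.87 CPM in replicate A to 31.0 CPM in replicate C, a wider range than the shams of 7.94 to 12.6 CPM. On day 7 they held 9.67 to 25.6 CPM, highest in replicate C, and the shams 4.58 to 14.2 CPM. The log2 fold changes against sham were 0.59 ± 0.37, 0.79 ± 0.36, 0.73 ± 0.39, 0.75 ± 0.35 and 1.04 ± 0.38 in order of time, and none met the call rule. Against control they were smaller, between 0.19 ± 0.36 at 3 h and 0.72 ± 0.36 on day 3, and 4 of the 5 sham groups lay below control, at a log2 fold change of -0.34 to -0.56. The sum of the IL-6 and STAT3 genes had a correlation of 0.76 with *Slc39a14* over the 48 libraries, and that of 5 peripheral myeloid genes 0.73. The part of either in its level was not tested.

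**Figure D3:**
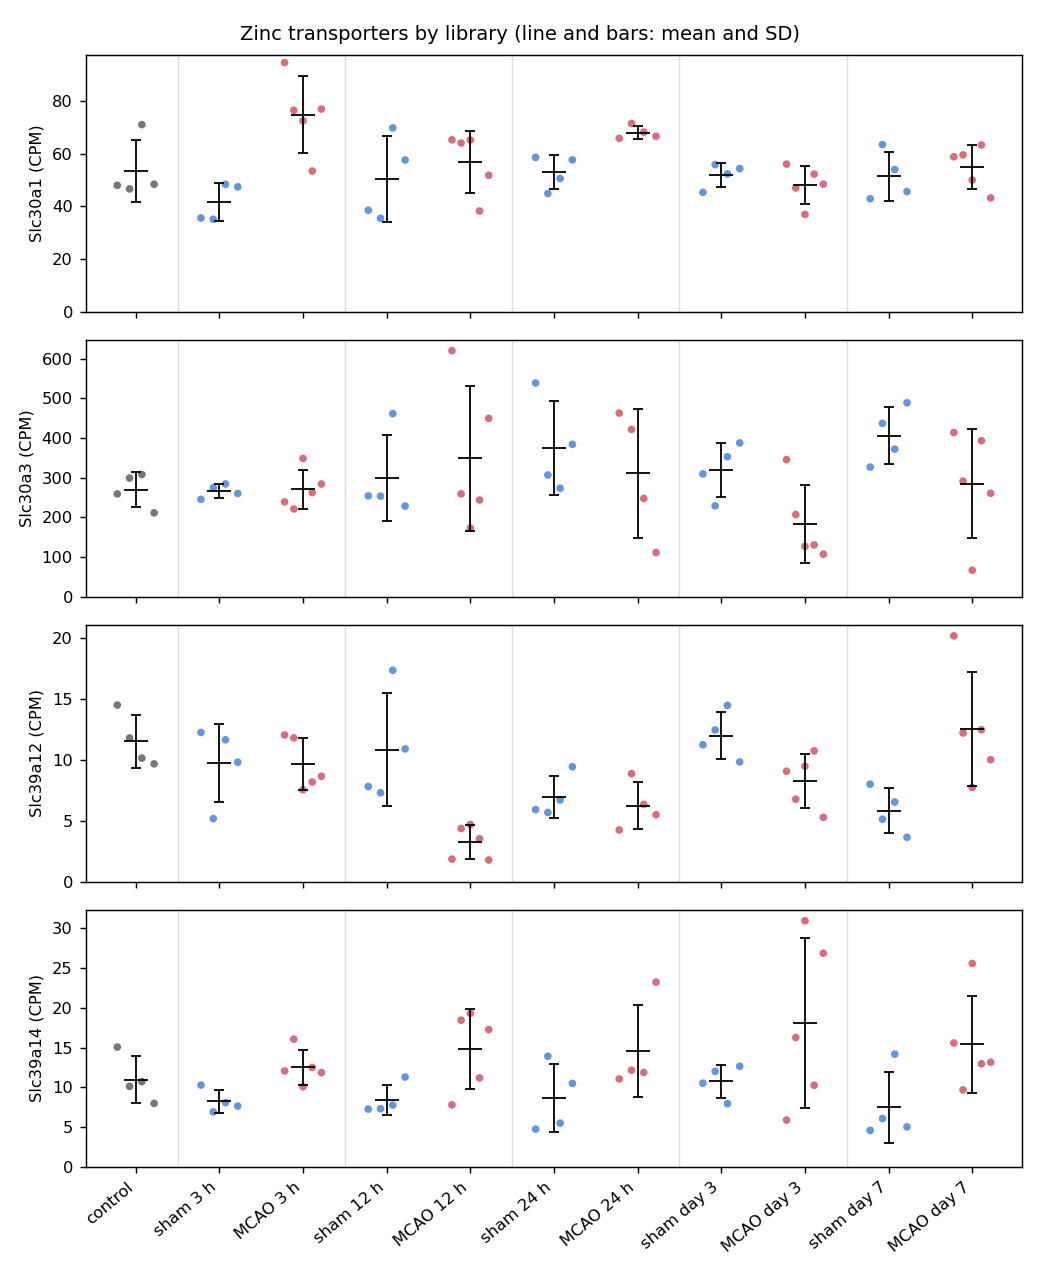
Levels of *Slc30a1*, *Slc30a3*, *Slc39a12* and *Slc39a14* in each of the 48 libraries (points, CPM on linear axes that start at 0), by group in order of time, with control in grey, sham in blue and MCAO in red and the group mean and SD in black. *Slc30a1* is highest at 3 h after MCAO (53.4 to 94.6 CPM), and *Slc39a12* is lowest at 12 h after MCAO (1.79 to 4.69 CPM).

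Read across the 11 groups, the order of the group means was led for *Mt1* and for *Mt2* by MCAO at 12 h, 24 h, 3 h and day 3. Neighbours in that order overlapped in all 10 steps for 6 of the members. The exception was *Slc30a1*, where the MCAO groups of 24 h and 12 h did not overlap. MCAO and sham libraries of the same time did not overlap for 3 members at 3 h (*Mt1*, *Mt2* and *Slc30a1*), for 2 at 12 h (*Mt1* and *Slc39a12*), for 3 at 24 h (*Mt1*, *Mt2* and *Slc30a1*) and for none on days 3 and 7. Among all 19970 genes tested, the groups did not overlap for 3.58%, 3.29%, 5.84%, 7.14% and 10.5% at these times.

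Calls against sham numbered 0 of 7 members at 3 h, 3 at 12 h (*Mt1*, *Mt2* and *Slc39a12*), 1 at 24 h (*Mt1*), 1 on day 3 (*Mt1*) and 0 on day 7. Of all genes tested, 0.11%, 0.411%, 0.0901%, 4.02% and 3.5% were called in these comparisons. The selection of the members used the same contrasts, so nothing is read from the difference between the counts and these shares. The median log2 fold change of the 7 members was 0.63, 0.22, 0.69, 0.69 and 0.51 at the 5 times, and the other zinc genes had medians of -0.04, -0.11, 0.04, -0.08 and 0.05. The other zinc genes are those left after that selection, so nothing is read from the gap between these medians either. Against control, calls numbered 0, 3, 2, 0 and 0 of the members, where 0.13%, 0.851%, 0.275%, 3.09% and 1.5% of all genes were called. The control and sham comparisons share their MCAO libraries and are not independent.

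**Figure D4:**
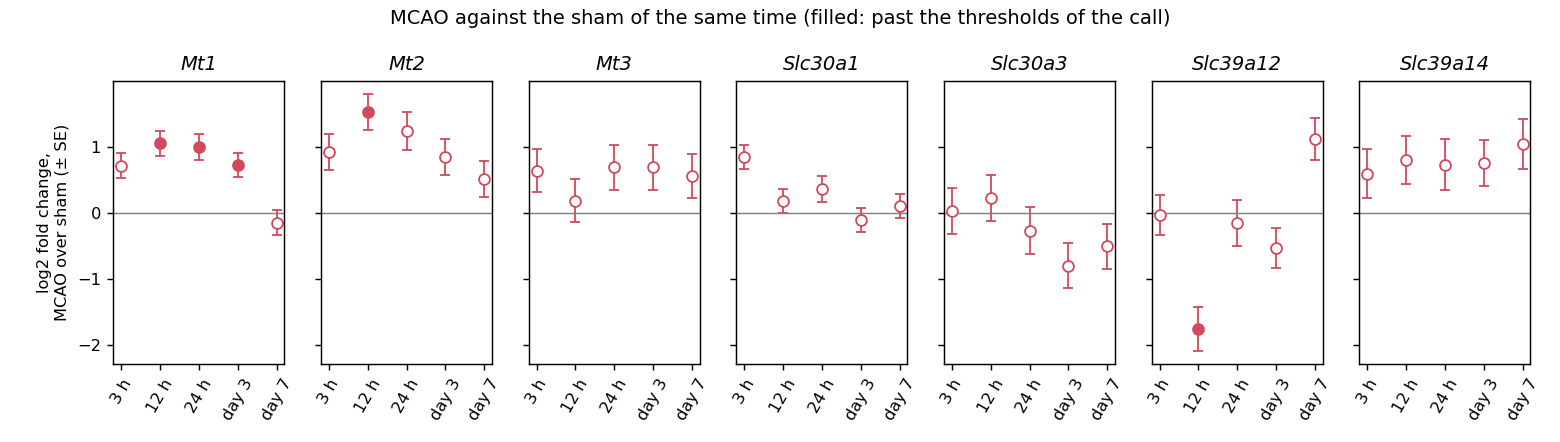
Log2 fold change of MCAO over the sham of the same time (points, with bars for the standard error from edgeR) for each of the 7 members, at 3 h, 12 h, 24 h, day 3 and day 7. Filled points passed the thresholds of the call, which are *Mt1* at 12 h, 24 h and day 3, *Mt2* at 12 h, and *Slc39a12* at 12 h.

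Surgery alone was compared through the shams and controls, which share the control libraries across times. No member was called in any of the 5 comparisons, in which 0%, 0.0351%, 0.01%, 0% and 0% of all genes were called. The largest of the members' differences was that of *Slc39a12* on day 7 (-0.99 ± 0.34), followed by *Slc39a12* at 24 h, *Slc30a3* on day 7 (0.59 ± 0.36) and *Slc39a14* on day 7. *Mt1* was higher in the 12 h shams than in control by 0.48 ± 0.19, and *Slc30a3* was higher in the 24 h shams by 0.48 ± 0.36.

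Change over time of the difference between MCAO and sham was estimated for successive times. From 3 h to 12 h it moved by -1.72 ± 0.45 for *Slc39a12* and by -0.67 ± 0.26 for *Slc30a1*, against 0.34 ± 0.26 for *Mt1* and 0.60 ± 0.38 for *Mt2*. From 12 h to 24 h it moved by 1.60 ± 0.49 for *Slc39a12*, and from day 3 to day 7 by 1.65 ± 0.44 for *Slc39a12* and by -0.87 ± 0.26 for *Mt1*. No member was called in these 4 contrasts, in which 0.01%, 0.01%, 0.01% and 0% of all genes were called.

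The other 24 zinc genes were *Mt4*, the remaining exporters and importers of both families, the MRE-binding factor *Mtf1*, the zinc receptor *Gpr39* and the vesicular transporter *Tmem163*. Of these, 19 passed the count minimum, and *Mt4*, *Slc30a2*, *Slc30a8*, *Slc39a7* and *Gpr39* did not. None of the 19 was called by edgeR against sham at any time, against control or between successive times. At an unadjusted p under 0.05, edgeR gave 1, 4, 1, 4 and 5 of them against sham in order of time, and DESeq2 called 0, 0, 0, 0 and 1. Of all genes tested, 8.45%, 14.6%, 8.8%, 21.6% and 23.5% had an edgeR p this low. The genes named next were singled out after their values had been seen. *Slc39a9*, an importer, had the lowest adjusted p, 0.0315 on day 7 from edgeR, with a log2 fold change of 0.76 ± 0.24 and overlapping groups (52.6 to 79.4 CPM after MCAO and 14.1 to 59.4 CPM in sham). It was the gene called by DESeq2, and edgeR called it without sham replicate C (1.07).

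*Slc39a1*, an importer of the plasma membrane, was next, with 57.5 to 88.6 CPM after MCAO on day 7 and 20.1 to 51.8 CPM in sham. The groups did not overlap, and the log2 fold change was 0.98 ± 0.31 with an adjusted p of 0.0328 from edgeR. Elsewhere non-overlapping groups were seen for *Slc39a3* at 12 h (17.3 to 30.6 CPM after MCAO, 30.7 to 48.4 CPM in sham), for *Slc30a4* on day 3 (27.3 to 37.9 and 39.4 to 46.8 CPM) and for *Slc39a8* on day 3 (3.74 to 5.37 and 0 to 2.77 CPM). In order of time, the groups did not overlap for 0, 1, 0, 2 and 1 of the 19 genes. Among all genes tested the shares were 3.58%, 3.29%, 5.84%, 7.14% and 10.5%, and nothing is read from these counts. *Mtf1* was at 34.6 to 52.4 CPM after MCAO at 3 h and at 27.7 to 35.7 CPM in sham, a log2 fold change of 0.46 ± 0.19 with an adjusted p of 0.479 from edgeR. Its levels at the other times differed by log2 fold changes between -0.24 and 0.03.

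**Figure D5:**
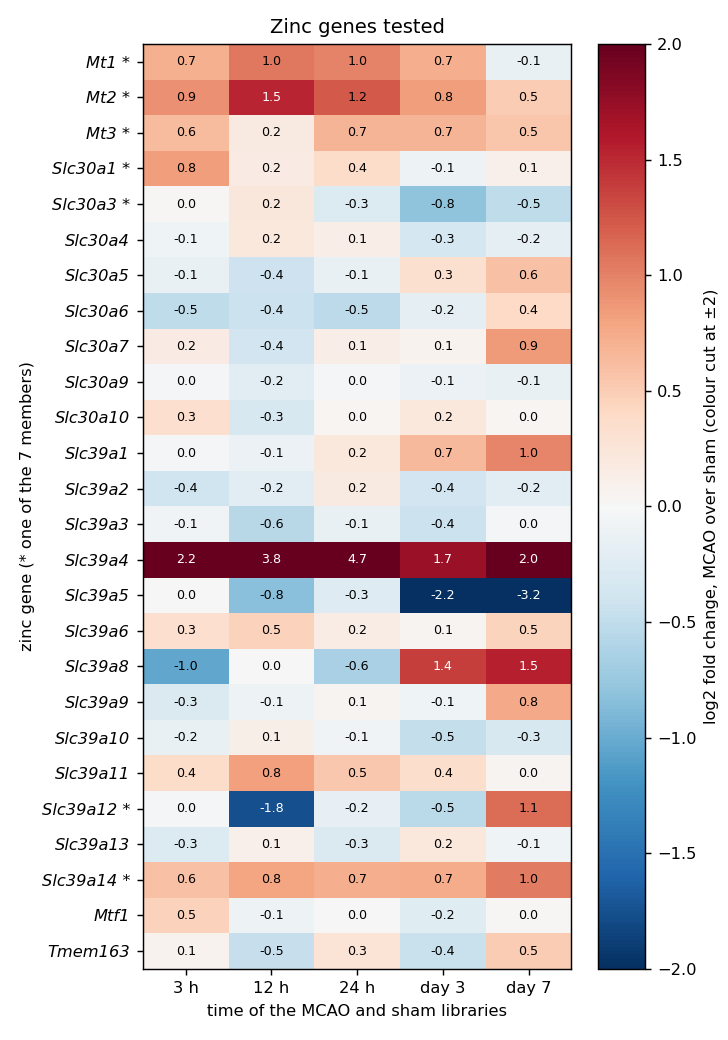
Log2 fold change of MCAO over sham (colour and printed value) for the 26 zinc genes tested, in rows by family, at the 5 times in columns, with the 7 members starred. Red is higher after MCAO and blue lower, with colour cut at 2, and the values of *Slc39a4* and *Slc39a5* beyond it rest on few counts (at most 8 and 3 per library).

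Genes whose level followed that of a member most closely were sought among the 9857 genes with a mean of at least 10 CPM, by Pearson correlation of log2(CPM + 1) over the 48 libraries. For *Mt1* they were *Eif2s2* (0.82), *Eprs* (0.80) and *Srxn1* (0.80), which encode a translation initiation factor subunit, a tRNA synthetase and the antioxidant enzyme sulfiredoxin. For *Mt2* they were the transcription factor genes *Stat3* (0.81) and *Cebpd* (0.78) and the granulocyte gene *S100a8* (0.79). For *Mt3* the highest values were lower, *Rpl21* (0.63), *Snrpa1* (0.61) and *Ubxn4* (0.61). For *Slc30a1* they included *Trim35* (0.67) and the neuronal glucose transporter gene *Slc2a3* (0.64). *Slc30a3* was followed by *Olfm1* (0.93), *Ap3b2* (0.87) and *Neurl1a* (0.84), of which *Ap3b2* encodes a neuronal subunit of the AP-3 adaptor that sorts the SLC30A3 protein to vesicles. *Slc39a12* was followed by *Cst3* (0.77), *Atrnl1* (0.77) and *Gpm6b* (0.75), and *Slc39a14* by *Clic4* (0.76), *Stat3* (0.76) and *Srgn* (0.75). The gene *Stat3* is itself in the list of IL-6 and STAT3 genes, so its correlations are not separate from those of that sum. Among the members themselves the lowest correlations were those of *Slc30a3* with *Slc39a14* (-0.60) and of *Mt1* with *Slc39a12* (-0.58).

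The identity of the tissue was read from the markers. Neuronal, astrocyte, oligodendrocyte and microglial genes were detected in every group with none at 0. Single libraries stood apart in composition. Control replicate A held 498.8 CPM of choroid plexus genes against 0.569 CPM in the lowest control, and day 7 MCAO replicate C held 5453 CPM of fibroblast genes against 153 to 480.3 CPM in its group. On day 3, 6 of 8 microglial, 3 of 5 fibroblast, 3 of 5 peripheral myeloid, 3 of 5 blood and 2 of 6 endothelial genes were called higher after MCAO. On day 7 the counts were 3 of 8, 4 of 5, 1 of 5, 4 of 5 and 0 of 6. The study describes its replicates as mice, and the labels tie no library to an animal, so the p-values measure the spread between libraries.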

How the data were processed

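Raw counts per gene, deposited by the authors as one table for each library, were used. The authors' pipeline was TrimmomaticSE, SortMeRNA (against mitochondrial and ribosomal sequence), STAR 2.5.2b on GRCm38 and htseq-count (union mode) with the Gencode vM8 genes. A deposited log2-scale matrix was not used. Reads without a feature (median 23.5% of the alignments listed), ambiguous reads (0.400%), reads not unique (33.5%) and spike-ins stayed out of library sizes. Symbols and coordinates came from Gencode vM21 (46488 of 46983 genes matched), and promoter sequences from RefSeq (GRCm38.p6; 6 of the 7 members matched).

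All genes whose counts summed to over 10 (19970) were fitted with edgeR 4.0.16 in R 4.3.3 (TMM, glmQLFit, glmQLFTest, 1 factor of 11 groups) and p-values adjusted by Benjamini-Hochberg over all of them, a script tested on simulated data beforehand. The thresholds, an adjusted p of 0.01 and a log2 fold change of 0.58, were those of the study. Standard errors are the log2 fold change over the root of the F statistic. The members and all lists (zinc genes, 11 marker lists and 2 response lists) were chosen with earlier results of these data known. Named were the members, any other zinc gene called, and for each member the 3 genes of highest correlation, of which 1 is not reported here. Some further zinc genes were named after their values were seen. Alternatives were DESeq2 1.42.0 or its size factors, filterByExpr, no filter, spike-in scaling, only the groups compared, a block for the replicate letter and leaving out each library in turn.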

Additional observations from a re-analysis of the deposited data

Results flagged for a closer look

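A library was set aside for a closer look where its gap to the nearest library of its group was large against the range of the group (Dixon's criterion at 95%). This was so in 9 of 77 groups of the 7 members, and each flagged library was the highest of its group. The criterion assumes normal values, while linear CPM can be skewed upward, and the members share the same libraries. The number flagged is therefore not set against a rate expected by chance. MCAO replicate C at 3 h held 1330 CPM of *Mt1*, where the other 4 held 779 to 928 CPM, and 107 CPM of *Mt3*, where the others held 29.3 to 48.2 CPM. MCAO replicate D at 24 h held 1103 CPM of *Mt2* (others 539 to 623 CPM) and 23.2 CPM of *Slc39a14* (others 11.1 to 12.2 CPM), and it was also the library with the highest striatal sum, 2873 CPM. Among shams, replicate D of day 3 held 613 CPM of *Mt1* (others 464.5 to 476 CPM), replicate C of 12 h held 461 CPM of *Slc30a3* (others 228 to 254 CPM), replicate D of 12 h held 11.3 CPM of *Slc39a14* (others 7.26 to 7.76 CPM) and replicate C of day 7 held 14.2 CPM of *Slc39a14* (others 4.58 to 6.07 CPM). Control replicate C held 71.1 CPM of *Slc30a1* (others 46.6 to 48.4 CPM).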

How the results depend on the processing

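Across the alternatives, 552 of 553 log2 fold changes moved by less than the SD between libraries, the exception being *Slc30a1* on day 3 with spike-in scaling (-0.11 became -0.34). No called value changed sign, while 11 values of uncalled *Slc30a3* and *Slc39a12* comparisons did. Moves past the standard error numbered 10, 7 of them with a library left out, such as *Mt3* at 3 h (0.63 became 0.18 without MCAO replicate C), and 3 with spike-in scaling on day 3, where *Mt1* was at 0.44 and *Mt2* at 0.54. Counts of called members against sham were less stable. At 3 h the count was 0 and became 1 with DESeq2 and 1 with only the groups compared in the fit (0 to 1 with a library left out). At 12 h it was 3 and became 0 with only the groups compared (1 to 3 with a library left out). At 24 h it was 1 and became 2 with DESeq2, 2 with no filter on low counts and 2 with only the groups compared (0 to 1). On day 3 it was 1 and became 0 with spike-in scaling, 0 with only the groups compared and 0 with the replicate block (0 to 2). On day 7 it was 0 and became 1 with DESeq2, through *Slc39a12*. Of the other zinc genes on day 7, 0 were called and 1 with DESeq2 (0 to 1). Against control, zinc genes called at 3 h numbered 0 and became 2 with DESeq2, 2 with no filter and 2 with only the groups compared (0 to 1), and at 12 h 3 became 2 with only the groups compared. At 24 h 2 became 1 with spike-in scaling (1 to 2), on day 3 0 became 1 with DESeq2's size factors, 2 with DESeq2, 1 with filterByExpr and 1 with no filter (0 to 4, the 4 being without MCAO replicate A, with *Slc39a1* and *Slc39a10* among them), and on day 7 0 became 1 with only the groups compared. Deviations from the group means were correlated between same-lettered MCAO and sham libraries of the same time (-0.31 to 0.17, 8 of 20 pairs over 0.1). These pairs cannot show whether a letter marks a batch shared across times, and the labels do not say what a letter stands for. With the letter as a replicate block, the call of *Mt1* on day 3 was lost (0.71), and no other call of a zinc gene changed. The causes of these changes were not tested. *Slc39a12* and *Slc39a14* rest on few counts, which limits their precision.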
